A study of Brassica napus with 17 samples.

Results

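The start of chromosome A07 of Brassica napus is described here as a run of consecutive genes, BnaA07g00010D to BnaA07g04420D in the order of their IDs, followed library by library. The count table lists 442 IDs in this range, of 101040 in all. Of these, 120 stayed under the minimum of 10 counts summed over the 17 libraries, including 71 with no count in any library. The remaining 322 genes are the members. The filter on low counts passed 280 of the 322 members, and 64330 genes of the whole table, and each log2 value over several genes below refers to tested genes. At the count minimum, BnaA07g02090D and BnaA07g02900D were just inside with 10 counts, and BnaA07g00030D, BnaA07g01920D and BnaA07g03200D just outside with 9. The members were selected on the summed counts of these same libraries, and the bounds of the range were proposed with measured values of these libraries in view. Which comparison set the bounds is not recorded, so every value over the members is given as a description and has no test.

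The libraries come from microspore cultures of doubled haploid line DH12075 that carry a LEC1-GFP reporter, a fluorescent readout of an embryo regulator, in all 6 groups. Cultures given heat stress plus trichostatin A (TSA) were sampled at day 8 (2 libraries, 0.05 µM), day 4 (3 libraries) and day 2 (3 libraries, 0.5 µM). The day 4 TSA samples are titled 0.5 µM, but their treatment field says 0.05 µM, so their dose is uncertain. Heat-only cultures were sampled at day 4 and day 2 (3 libraries each), and untreated microspores at day 0 (3 libraries). Heat was 33 °C for 24 hours, after which TSA was removed and cultures stayed at 25 °C. Day 8 has no heat-only group, and its dose differs from that of day 2, so time and dose cannot be told apart there. A library represents a whole culture, so fewer cells of a type and less RNA per cell cannot be told apart. The replicates are called biological by the series design, and how many cultures or donor plants stand behind each is not given in the sources used here.

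Brassica napus is an allotetraploid. It carries an A subgenome derived from Brassica rapa and a C subgenome derived from Brassica oleracea, and most genes have a close relative, a homoeolog, on the other subgenome. Its microspores are immature haploid pollen cells that can leave pollen development under heat stress and form haploid embryos in culture. TSA inhibits histone deacetylases, enzymes that remove acetyl groups from histones and are mostly associated with lower transcription. IDs of the form BnaA07g count up along chromosome A07. The deposited tables give IDs without gene names, so no role can be given for any member, and the labelled cell type was not checked against markers here. Reads from a member and its homoeolog may be hard to tell apart, and how the counting treated them is not given in the sources used here.

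Depth varied between libraries. The deepest, replicate 1 of the day 4 TSA cultures, held 31407037 counts, and the shallowest, day 0 replicate 3, 2716279. Levels are counts per 1000000 (CPM) with TMM-scaled library sizes. Without gene lengths they compare libraries, not genes. By its highest group mean the middle member reached 5.84 CPM, 115 members reached at least 10 CPM and 11 at least 100 CPM. The highest group mean fell in heat-only day 4 cultures for 73 members (22.7%) and in heat-only day 2 cultures for 59 (18.3%). Over the 75664 genes with at least 10 counts these shares were 19.8% and 13.0%. It fell in day 8 cultures for 59 members (18.3%, against 21.8% of those genes), in day 4 TSA cultures for 39 (12.1%, against 15.9%), in day 2 TSA cultures for 36 (11.2%, against 11.3%) and at day 0 for 56 (17.4%, against 18.3%).

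The libraries of 3 groups stood apart from their own replicates or from all others over this run of genes. The measure is a gene's log2 CPM minus its mean over the 6 group means, taken as the median over the genes and set against the median of the other 2482 tested A07 genes. In heat-only day 2 cultures it was 0.55 in replicate 2 and 0.54 in replicate 3, but 0.0031 in replicate 1. In heat-only day 4 cultures it was 0.53 in replicate 2 and 0.59 in replicate 3, but −0.13 in replicate 1. In heat plus TSA day 8 cultures it was −0.35 in replicate 1 and −0.93 in replicate 2. The other 9 libraries lay between −0.15 and 0.064. Thus replicates 2 and 3 of both heat-only days sat above the rest of the chromosome while both replicates 1 sat close to it, and both day 8 libraries sat below it.

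**Figure D1:**
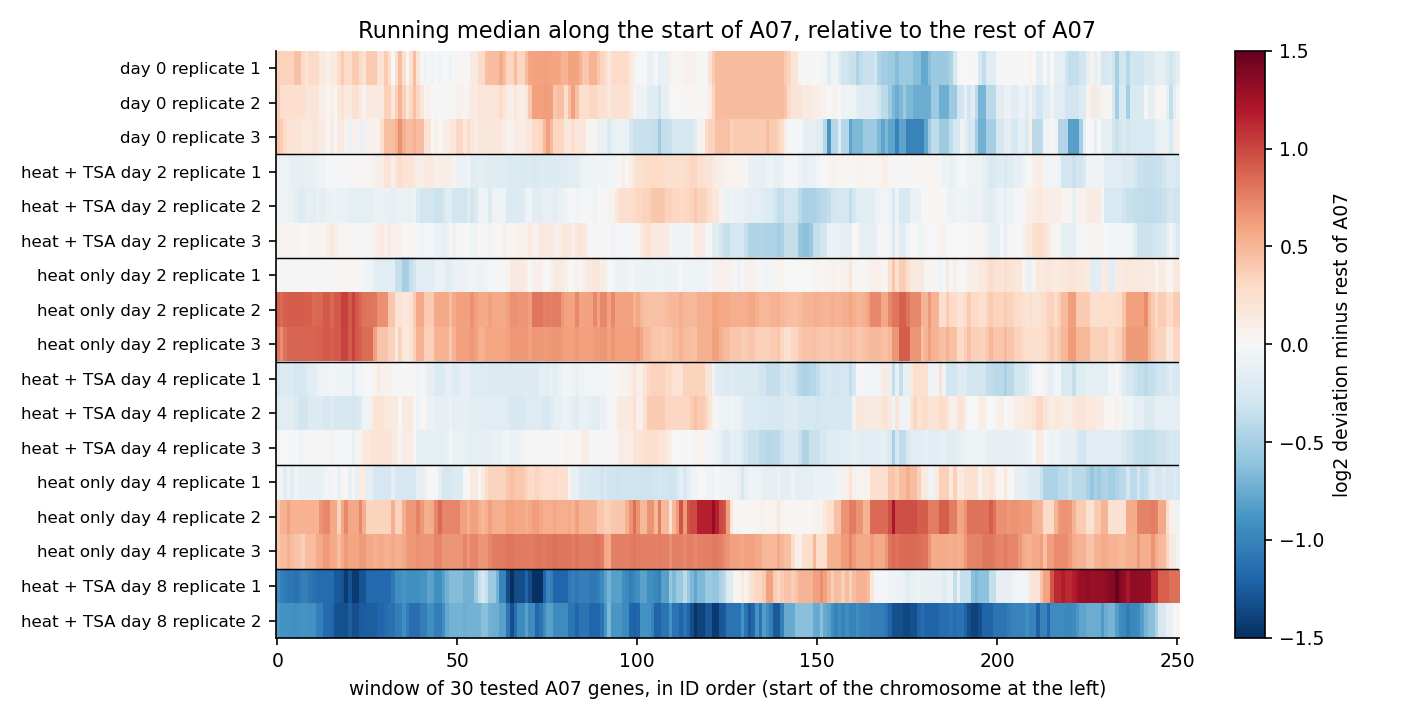
Running median over 30 tested genes along the start of A07 in ID order (x axis) for each of the 17 libraries (rows), as log2 deviation from the gene's mean over groups minus the median of the rest of A07 (colour). Replicates 2 and 3 of heat-only days 2 and 4 are red along most of the run, and the day 8 libraries are blue in the left part, where they part company to the right: replicate 1 turns pale or red and replicate 2 stays blue until the last windows.

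The day 8 libraries divide the run into 3 stretches. The divisions were placed where the median difference between the 2 day 8 libraries changed most, so they are themselves a description of these libraries. The first stretch runs from BnaA07g00010D to BnaA07g02060D (154 members, 136 tested), the middle stretch from BnaA07g02070D to BnaA07g04280D (156 members, 132 tested), and the last stretch from BnaA07g04290D to BnaA07g04420D (12 members, all tested). In the first stretch both day 8 libraries were low relative to the rest of A07, at −0.99 in replicate 1 and −0.92 in replicate 2, where the other 15 libraries lay between −0.093 and 0.68. In the middle stretch only replicate 2 was low, at −1.02, and replicate 1 was at 0.41. The other 15 libraries lay between −0.27 and 0.58 there. In the last stretch both day 8 libraries were above the rest of the chromosome, by 0.71 in replicate 1 and 0.45 in replicate 2.

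**Figure D2:**
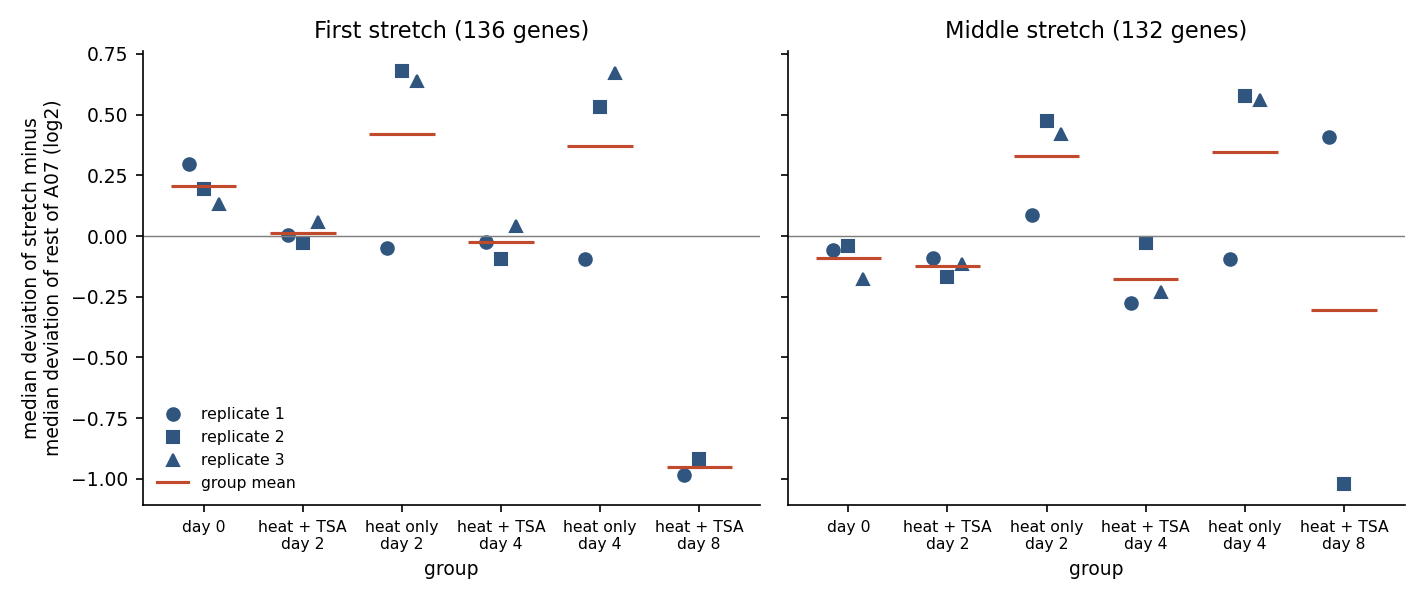
Median deviation of the first stretch (left) and the middle stretch (right) minus that of the rest of A07, on a log2 scale (y axis), for every library by group (x axis); symbols mark replicates and lines the group means. Both day 8 libraries are near −1 in the first stretch, but only replicate 2 is in the middle stretch, and replicates 1 of the heat-only groups lie below replicates 2 and 3 in both panels.

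The plain share of all counts that fell on the members showed the differences between replicates, but not the same order of groups. The 322 members together took 2631 counts per 1000000 in day 8 replicate 1 and 1517 in day 8 replicate 2. They took 1933 in heat-only day 4 replicate 1, against 2934 in replicate 2 and 2833 in replicate 3. They took 2009 in heat-only day 2 replicate 1, against 2845 in replicate 2 and 2853 in replicate 3. The TSA libraries of days 2 and 4 lay between 2403 and 2680 and the day 0 libraries between 3042 and 3166. Day 8 replicate 1 thus lay within the range of these TSA libraries, and replicates 2 and 3 of both heat-only days lay below all day 0 libraries. Unlike the medians, these sums are not set against the rest of A07, whose share also differed between groups. The later A07 IDs took 29086 and 30467 per 1000000 in replicates 2 and 3 of heat-only day 4. They took 37844 and 37587 in those of heat-only day 2, and 40067 to 40846 at day 0. The first stretch alone took 537 and 545 per 1000000 in the day 8 libraries, against 915, 908 and 1083 in the day 4 TSA libraries. The middle stretch took 499 per 1000000 in day 8 replicate 2, against 1731 in replicate 1. These sums follow a few highly expressed members more than the medians do.

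In heat-only day 2 cultures, 220 of the 280 tested members (78.6%) were lower in replicate 1 than the mean of replicates 2 and 3, against 49.8% of all tested genes. The median difference was −0.56 on the log2 scale, with quartiles of −0.83 and −0.099, and the median over all tested genes was 0. At least 0.5 log2 lower were 53.2% of the members and 15.9% of all genes. Replicate 1 was the lowest of the 3 libraries for 206 members (73.6%), against 40.3% of all genes. Between replicates 3 and 2 the median difference of the members was 0.

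In heat-only day 4 cultures the difference had almost the same size. There, 219 of the 280 members (78.2%) were lower in replicate 1 than the mean of replicates 2 and 3, against 51.7% of all genes, with a median of −0.57 and quartiles of −1.22 and −0.077. At least 0.5 log2 lower were 53.6% of the members and 29.3% of all genes. Replicate 1 was the lowest of the 3 for 184 members (65.7%), against 40.4% of all genes. Replicate 3 minus replicate 2 had a median of 0.024. The 2 days share no library, and 86 members (30.7%) were at least 0.5 log2 lower in replicate 1 on both days, against 8.26% of all genes. Only 8 members (2.86%) were that much higher on both days, against 5.96% of all genes.

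Replicate 1 was also the shallowest library of its group on both days, with 17845967 counts on day 2 and 9360060 on day 4. After the libraries of each group were thinned to these totals, the median of the members minus that of the rest of A07 was −0.50 on day 2, against −0.56 before thinning. On day 4 it was −0.42 after thinning and −0.57 before. Day 0 replicate 3, at 2716279 counts the shallowest library of all, differed from day 0 replicate 1 by −0.023 over the members relative to the rest of A07. That library belongs to another group, and the cause of the heat-only difference was not tested. Whether replicate 1 of day 2 and replicate 1 of day 4 come from 1 culture or donor is not given in the sources used here.

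**Figure D3:**
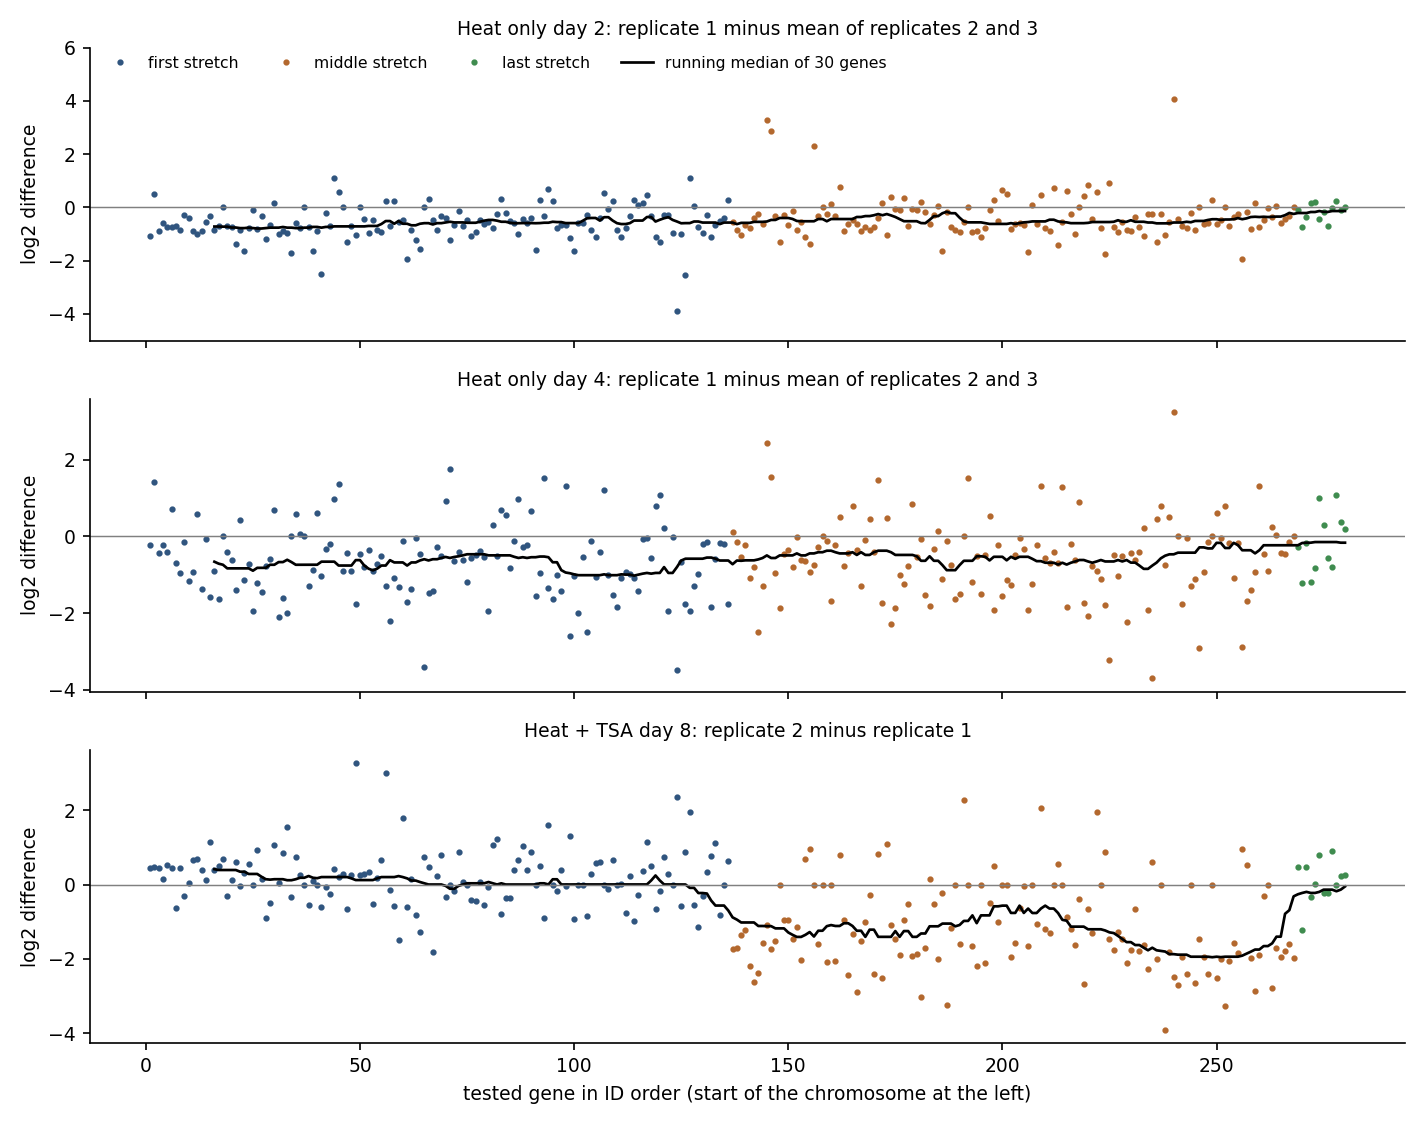
Log2 difference between replicates (y axis) for each tested member in ID order (x axis): heat-only day 2 (top) and day 4 (centre), replicate 1 minus the mean of replicates 2 and 3, and heat plus TSA day 8 (bottom), replicate 2 minus replicate 1. Colours mark the 3 stretches and the line is the running median of 30 genes; it stays below 0 along the first and middle stretches in the upper panels, and drops only in the middle stretch in the bottom one.

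In heat plus TSA day 8 cultures, replicate 2 differed from replicate 1 by a median of −1.47 over the middle stretch, with quartiles of −1.96 and −0.19. At least 1 log2 lower were 62.9% of the 132 tested genes, against 8.77% of all tested genes. The median was 0.15 in the first stretch and 0.12 in the last. Replicate 2 was the deeper library, with 21839207 counts, against 14142177 in replicate 1. Of the middle stretch members, 86 had at least 20 counts in replicate 1. Their median level in replicate 2 was 26.8% of that in replicate 1, and none was at 0 in replicate 2. These members were chosen by their counts in replicate 1 and replicate 2 was deeper, so a count of 0 was unlikely. Whether members with fewer counts were lost is not covered by these values. Of these 86 members, 76 were under 0.5 times the replicate 1 level, 37 under 0.25 times, and 5 were above it. In the first stretch the median was 110% over 72 members, of which 41 were above replicate 1.

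Per the sample descriptions, the day 0, day 2 TSA and day 8 libraries share a named sequencing run, with 1 lane number for all replicates 1 and another for all replicates 2. Replicate 2 minus replicate 1 over the middle stretch, relative to the rest of A07, was −1.59 on day 8, against −0.0075 in the day 2 TSA cultures and −0.0072 on day 0. Within day 8 each lane number goes with 1 replicate, so lane and replicate cannot be told apart there. The cause of the day 8 difference was not tested. The day 4 TSA and heat-only samples name no run. Over the whole run of genes, the differences among the replicates of day 0, day 2 TSA and day 4 TSA cultures lay between −0.023 and 0.060 relative to the rest of A07.

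The first stretch was low in both day 8 libraries against every other group. Both lay below all 3 day 4 TSA libraries for 87 of the 136 genes (64.0%), against 42.0% of all tested genes. Both lay below all day 2 TSA libraries for 91 genes (66.9%), against 39.4% of all genes. The count was 77 (56.6%) against heat-only day 4, where all genes gave 37.1%, and 82 (60.3%) against heat-only day 2, where all genes gave 41.3%. Against day 0 it was 78 genes (57.4%), against 32.6% of all genes. The median log2 difference from the day 4 TSA mean was −1.12 in replicate 1 and −1.03 in replicate 2. From the day 0 mean it was −0.96 in replicate 1 and −0.88 in replicate 2. These comparisons share the day 8 libraries and are not independent of each other.

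The steps lie where the median differences changed most, so the values on either side describe that placement and do not test it. Between the 2 day 8 libraries the median changed from 0.15 before to −1.47 after the step from BnaA07g02000D to BnaA07g02070D, which are neighbours among the tested genes. It returned to 0.094 over the genes after the step from BnaA07g04280D to BnaA07g04290D. The search covered the start of A07 and a limited run of IDs after it, not the whole chromosome. Within these genes the heat-only steps lay close by. On day 2 the step between BnaA07g04260D and BnaA07g04280D split 267 tested genes from 582 (median −0.58 before and 0 after). BnaA07g04280D had no count in any heat-only library, so its difference there was 0 by construction. On day 4 the step lay between BnaA07g04350D and BnaA07g04360D (−0.59 before and 0.0087 after). The last 12 genes of the range thus showed smaller differences, with medians of −0.092 on day 2 and −0.23 on day 4. The next 265 tested IDs of A07 differed little from the rest of the chromosome in all 17 libraries, with values from −0.17 to 0.20.

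Single genes at the edges followed the medians only in part. BnaA07g00010D, the first member, had 9.40 and 12.7 CPM in the day 8 libraries, against 4.89, 4.46 and 5.92 CPM in the day 4 TSA libraries, so it was higher at day 8 where most of its stretch was lower. BnaA07g00070D, the first member with a mean of at least 10 CPM over the 6 group means, had 4.83 and 7.05 CPM in the day 8 libraries, against 12.3, 12.9 and 14.4 CPM in the day 4 TSA libraries. The 2 groups did not overlap. In heat-only day 2 cultures it had 9.75 CPM in replicate 1, against 16.7 and 15.4 CPM in replicates 2 and 3. BnaA07g04420D, the last such member, had 20.7 CPM in heat-only day 2 replicate 1, against 20.4 and 20.6 CPM in replicates 2 and 3, so its 3 libraries were nearly equal. BnaA07g04440D and BnaA07g04480D, the next such genes outside the range, had replicate differences of −0.24 each on heat-only day 2, and of 0.60 and −0.14 on heat-only day 4. BnaA07g04440D had no count in either day 8 library, against 21.7, 23.6 and 26.2 CPM at day 0, while BnaA07g04480D had 21.1 and 29.0 CPM at day 8, against 21.6, 22.5 and 27.2 CPM at day 0.

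A few members ran far beyond the shift of their neighbours. They were picked after their values were seen, as those with a replicate difference of at least 2 log2 on heat-only day 2 and at least 1.5 log2 in the same direction on day 4. BnaA07g01850D was the lowest, with 0.372 CPM in heat-only day 2 replicate 1, against 5.61 and 8.37 CPM in replicates 2 and 3. On day 4 it had 1.41 CPM in replicate 1, against 20.04 and 14.0 CPM. Its log2 differences were −3.90 and −3.49. With TSA it was far higher, at 76.1, 89.8 and 181 CPM on day 4 and 145, 117 and 262 CPM on day 2. BnaA07g01870D, 2 IDs on, was also lower in replicate 1, by −2.54 on day 2 and −1.77 on day 4.

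Another 3 members of the middle stretch went the other way. BnaA07g03790D had 110.6 CPM in heat-only day 2 replicate 1, against 8.53 and 4.96 CPM in replicates 2 and 3. On day 4 it had 194.5 CPM in replicate 1, against 16.2 and 26.1 CPM. Its differences were 4.07 and 3.24. With TSA it had 472, 472 and 474 CPM on day 4 and 164, 331 and 176 CPM on day 2, above every heat-only library of the same day. BnaA07g02210D was higher in replicate 1 by 3.28 on day 2 and 2.43 on day 4, and its neighbour BnaA07g02240D by 2.88 and 1.54. Of the 280 tested members, 2 were this far lower and 3 this far higher on both days. Of all 64330 tested genes, 325 were this far lower and 421 this far higher, so such genes also occurred elsewhere.

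**Figure D4:**
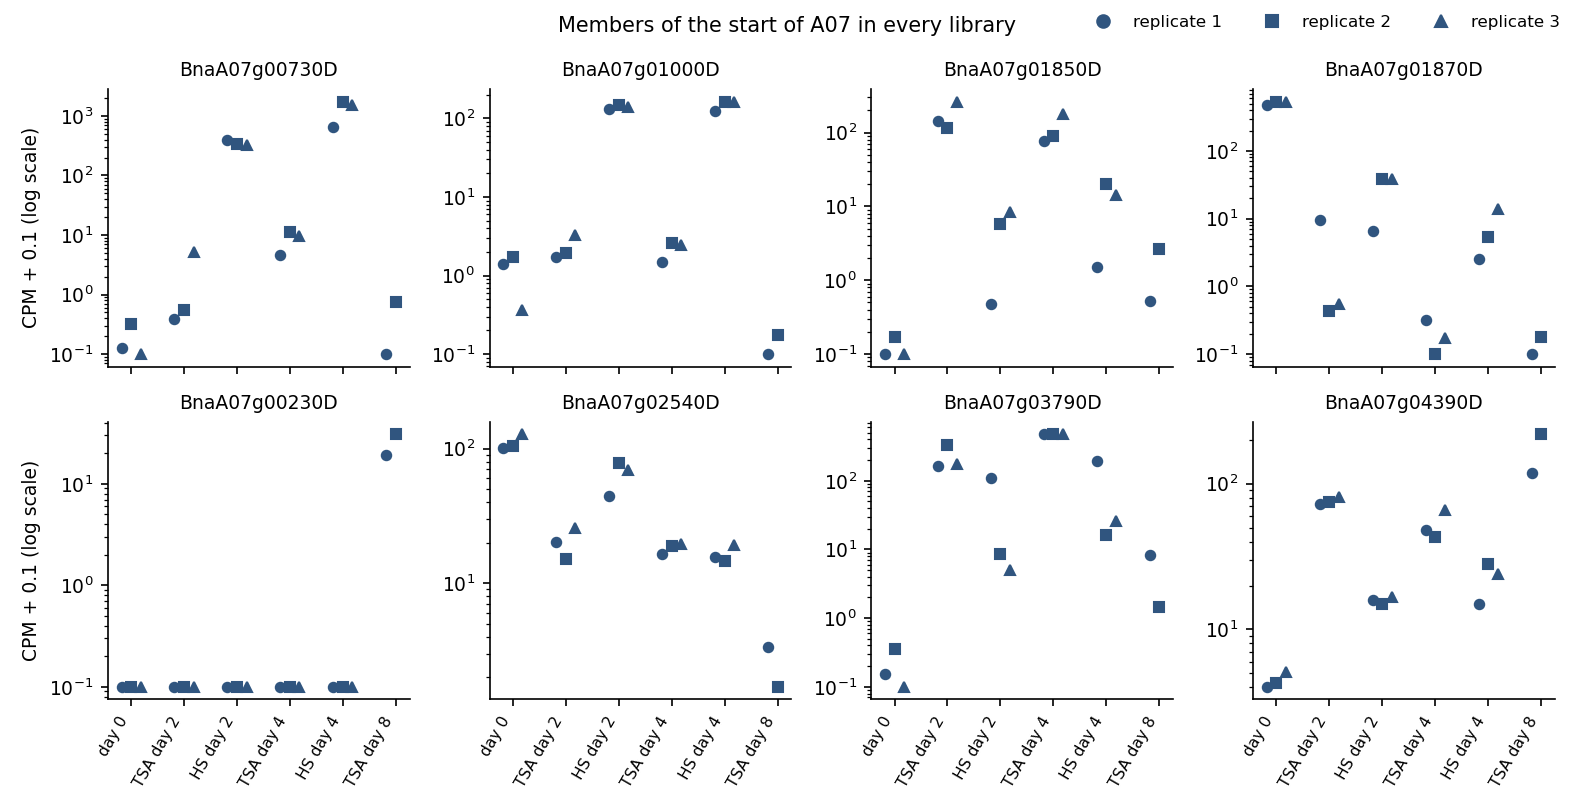
Level of 8 members in every library, as CPM plus 0.1 on a log axis (y), by group (x; TSA, heat plus TSA; HS, heat only); symbols mark replicates. BnaA07g00730D and BnaA07g01000D are high in the heat-only groups, BnaA07g01850D and BnaA07g03790D separate heat-only replicate 1 from replicates 2 and 3, and BnaA07g00230D is above 0 only at day 8.

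The comparisons between groups ask what TSA adds to heat and what each treatment changes over time. The test was edgeR's quasi-likelihood test with Benjamini-Hochberg adjustment over all 64330 genes, and an adjusted p under 0.05 counted as a call. Because replicates of the heat-only and day 8 groups differ over this run of genes, the counts of calls are given with and without the library concerned. The choice of scaling also moved the heat-only groups as a whole, so medians are set against the median of all genes. The day 0, day 2 TSA and day 8 libraries share a named run, and the day 4 TSA and heat-only samples name none. Where a comparison crosses these sets, a difference in run cannot be told apart from treatment or time. This holds for TSA against heat alone at day 2, heat-only day 2 against day 0, and day 4 TSA against day 2 or day 8. It also holds for the difference in TSA effect between days.

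TSA against heat alone at day 2 gave 66 members higher and 104 lower of 280, or 60.7% called, against 66.4% of all genes (34.8% higher and 31.6% lower). The median log2 fold change of the members was −0.31, which is −0.38 relative to the median of all genes, and this relative value lay between −0.41 and −0.38 under 4 scalings. With library totals in place of TMM, 101 members were higher and 63 lower. Without heat-only replicate 1, the calls were 58 higher and 109 lower, with a median of −0.49 for the members and 0.12 for all genes. Without replicate 2 they were 59 and 79, with medians of −0.16 for the members and 0.13 for all genes. Without replicate 3 they were 62 and 80, with medians of −0.17 and 0.13.

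BnaA07g01000D showed the most significant fall. It had 1.65, 1.81 and 3.17 CPM in the day 2 TSA libraries, against 131, 149 and 139 CPM in the heat-only ones, so the groups were far apart. Its log2 fold change was −6.01 ± 0.35 (SE; edgeR adjusted p = 5.05e-10). BnaA07g01270D, in the same stretch, averaged 0.785 ± 0.016 CPM in the TSA libraries and 17.8 ± 2.0 CPM in the heat-only ones (SD, n = 3 each), and fell by 4.49 on the log2 scale. BnaA07g01050D rose, with 5.88, 5.15 and 5.78 CPM in the TSA libraries, against 0.0744, 0.203 and 0.0910 CPM in the heat-only ones. BnaA07g02490D rose as well, with 15.9 ± 1.8 CPM in the TSA libraries and 1.67 ± 0.55 CPM in the heat-only ones (SD, n = 3 each), a log2 fold change of 3.20 ± 0.29 (SE).

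At day 4, 71 members were higher with TSA than with heat alone and 82 lower, or 54.6% called, against 67.6% of all genes (40.3% higher and 27.3% lower). The median of the members was 0.064 and that of all genes 0.44, a difference of −0.38 that stayed between −0.38 and −0.36 under 4 scalings. The split depended on scaling, with 48 higher and 97 lower under RLE factors and 157 higher and 48 lower under library totals. It depended on single libraries too, as did the medians. Without heat-only replicate 3 the median was 0 for the members and 0.22 for all genes, and without replicate 1 it was −0.29 for the members and 0.19 for all genes. The higher and lower calls were 42 and 101 without heat-only replicate 1, 45 and 83 without replicate 2, and 47 and 83 without replicate 3.

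BnaA07g01000D and BnaA07g01270D again led the lower genes. BnaA07g01000D had 1.39, 2.53 and 2.32 CPM in the day 4 TSA libraries, against 122, 160.2 and 163 CPM in the heat-only ones, a log2 fold change of −6.18 ± 0.35 (SE; edgeR adjusted p = 4.91e-10). BnaA07g01270D fell by 5.99 on the log2 scale. The most significant rises were modest. BnaA07g00650D averaged 7.75 ± 0.72 CPM in the TSA libraries and 1.89 ± 0.32 CPM in the heat-only ones, and BnaA07g03150D averaged 23.9 ± 2.2 CPM in the TSA libraries and 8.53 ± 1.2 CPM in the heat-only ones (SD, n = 3 each).

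Several members had their highest levels in the heat-only cultures. BnaA07g00730D had 662, 1736 and 1519 CPM at heat-only day 4 and 388, 336 and 325 CPM at heat-only day 2. It stayed at or under 11.04 CPM in all TSA libraries and under 0.22 CPM at day 0. BnaA07g00870D had 346, 1149 and 800.0 CPM at heat-only day 4, against 15.8, 19.6 and 14.1 CPM at day 0. For both genes replicate 1 was the lowest of the day 4 libraries, while on day 2 it was the highest. BnaA07g01290D averaged 208 ± 110 CPM at heat-only day 4 and had no count in the 3 day 2 TSA libraries (SD, n = 3). BnaA07g03490D, in the middle stretch, averaged 292 ± 96 CPM at heat-only day 4 and 112 ± 28 CPM at heat-only day 2 (SD, n = 3 each) and stayed under 3 CPM elsewhere. BnaA07g03520D peaked at day 2 instead, with 21.1 CPM in heat-only replicate 1, and 74.7 and 67.6 CPM in replicates 2 and 3.

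The effect of TSA differed between day 4 and day 2 for 50 members, 25 in each direction, or 17.9%, against 24.8% of all genes. BnaA07g03670D gave the most significant negative difference, at −4.79 ± 0.69 (SE; edgeR adjusted p = 0.00041). It had 2.28, 2.82 and 2.50 CPM with TSA at day 4, against 0.176, 3.61 and 3.22 CPM with heat alone, where replicate 1 lay far below the others. At day 2 it had 9.70, 7.48 and 5.38 CPM with TSA, against 0.223, 0.284 and 0.273 CPM with heat alone. BnaA07g04420D gave the most significant positive one, at 1.54 ± 0.20 (SE). Without single heat-only libraries the number of such members varied. It was 29 without day 2 replicate 2 (4 higher and 25 lower), 33 without day 2 replicate 3 (5 and 28) and 28 without day 4 replicate 2 (8 and 20). The higher and lower calls were 19 and 29 without day 2 replicate 1, 9 and 47 without day 4 replicate 1, and 11 and 24 without day 4 replicate 3. All genes moved with these changes. Their median was 0.079 with all libraries and lay between −0.24 and −0.17 without 1 heat-only library. The median of the members was 0.11 with all libraries and lay between −0.37 and −0.052 without 1 heat-only library. The higher and lower calls were 12 and 36 under RLE factors, 17 and 30 under upper-quartile factors and 59 and 14 under library totals.

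At heat-only day 2, 94 members were higher than at day 0 and 45 lower, or 49.6% called, against 56.4% of all genes (31.1% higher and 25.3% lower). The median of the members was 0.32 and that of all genes 0.069. Without day 2 replicate 1 the members' median was 0.58, with 98 higher and 32 lower, and that of all genes 0.11. Without day 2 replicate 2 the members' median was 0.28, with 82 higher and 35 lower, and that of all genes 0.081. Without day 2 replicate 3 it was 0.28, with 82 higher and 36 lower, and that of all genes 0.069. With library totals 59 members were higher and 85 lower. BnaA07g01000D averaged 140 ± 9.3 CPM at heat-only day 2 and 1.06 ± 0.71 CPM at day 0 (SD, n = 3 each), a log2 fold change of 6.74 ± 0.37 (SE). BnaA07g00320D rose by 4.46 on the same scale. BnaA07g01990D fell, with 3.13, 4.23 and 4.14 CPM at heat-only day 2, against 34.4, 34.3 and 37.7 CPM at day 0. BnaA07g03340D fell by 4.02.

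In the day 2 TSA cultures, 70 members were higher than at day 0 and 66 lower, or 48.6% called, against 61.6% of all genes (32.9% higher and 28.7% lower). BnaA07g01870D is the clearest day 0 gene of the run. It had 472, 534 and 528 CPM at day 0, 9.61, 0.337 and 0.453 CPM in day 2 TSA cultures, and 6.55, 38.6 and 38.2 CPM in heat-only day 2 cultures, and it was at or under 0.222 CPM in TSA cultures from day 4. Its replicates disagreed in both day 2 groups. BnaA07g02540D had 20.3, 15.1 and 25.8 CPM in the day 2 TSA libraries, against 100.1, 105.1 and 127 CPM at day 0. BnaA07g04390D, of the last stretch, had 72.7, 75.3 and 81.2 CPM in the day 2 TSA libraries, against 3.93, 4.20 and 4.98 CPM at day 0. Its log2 fold change was 4.17 ± 0.28 (SE; edgeR adjusted p = 2.87e-09). BnaA07g02630D averaged 10.3 ± 1.9 CPM in the day 2 TSA libraries and was nearly absent at day 0, with 0.0538 CPM in replicate 1 and no count in replicates 2 and 3.

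Between day 4 and day 2 few members differed in the TSA cultures. The test called 10 members, 3 higher and 7 lower at day 4, or 3.57%, against 6.40% of all genes (4.04% higher and 2.36% lower). Among them BnaA07g01050D averaged 1.36 ± 0.41 CPM at day 4 and 5.60 ± 0.40 CPM at day 2, and BnaA07g00960D averaged 5.12 ± 1.7 CPM at day 4 and 1.85 ± 0.34 CPM at day 2 (SD, n = 3 each). Without day 2 replicate 1, day 4 replicate 1 or day 4 replicate 2 the number called was 4. In heat-only cultures 104 members were called between the same days, 50 higher and 54 lower at day 4, or 37.1%, against 45.4% of all genes. That split was 55 higher and 48 lower without day 2 replicate 1, 76 and 22 without day 4 replicate 1, 50 and 17 without day 2 replicate 2, 52 and 18 without day 2 replicate 3, 41 and 22 without day 4 replicate 2, and 49 and 31 without day 4 replicate 3. The split was 69 higher and 28 lower under RLE factors and 24 higher and 112 lower under library totals. All genes moved here too. Their median was 0 with all libraries and lay between 0.16 and 0.24 without 1 heat-only library. The median of the members was −0.010 with all libraries and lay between 0.031 and 0.35 without 1 heat-only library. BnaA07g02000D averaged 194 ± 110 CPM at heat-only day 4 and 33.8 ± 3.9 CPM at heat-only day 2, and BnaA07g01940D averaged 5.77 ± 1.4 CPM at heat-only day 4 and 15.9 ± 1.8 CPM at heat-only day 2 (SD, n = 3 each).

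At day 8, 55 members were higher than at day 0 and 100 lower, or 55.4% called, against 58.1% of all genes (29.0% higher and 29.2% lower). The stretches differed in direction. In the first stretch 14 genes were higher and 74 lower of 136, in the middle stretch 35 higher and 25 lower of 132, and in the last stretch 6 higher and 1 lower of 12. With only day 8 replicate 1 in the fit the middle stretch gave 52 higher and 16 lower, and with only replicate 2 it gave 20 higher and 48 lower. The lone library is then assumed to vary like the other groups. The first stretch gave 12 higher and 64 lower of 135 with replicate 1 alone, and 13 higher and 63 lower with replicate 2 alone.

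Against the day 4 TSA cultures, 44 members were higher at day 8 and 108 lower, or 54.3% called, against 58.4% of all genes (23.4% higher and 35.0% lower). The first stretch gave 8 higher and 72 lower, with a median of −1.26, where all genes had a median of −0.29. The middle stretch gave 28 higher and 34 lower. With replicate 1 alone it gave 56 higher and 21 lower, and with replicate 2 alone 10 higher and 52 lower. The median of the middle stretch was 0.30 with replicate 1 alone and −1.03 with replicate 2 alone, so its direction was set by the library used. Over all members the calls were 70 higher and 88 lower with replicate 1 alone, and 21 higher and 114 lower with replicate 2 alone.

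Not every gene of the low first stretch was low at day 8. BnaA07g00230D had 18.9 and 30.6 CPM in the day 8 libraries and no count in the other 15. Against a floor of 3 counts over the 3 libraries of a group, it was at least 666-fold higher than in day 4 TSA cultures and at least 569-fold higher than at day 0. It was called against the day 4 TSA cultures by edgeR (adjusted p = 8.22e-06) but not by DESeq2 (adjusted p = 0.057). BnaA07g01990D had no count in either day 8 library, against 34.4, 34.3 and 37.7 CPM at day 0, and was at least 533-fold lower against a floor of 3 counts over the 2 day 8 libraries. BnaA07g01960D fell too, to 0.372 and 0.915 CPM in the day 8 libraries, against 5.89, 5.99 and 6.42 CPM in day 4 TSA cultures.

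In the middle stretch, some day 8 rises were carried mainly by replicate 1. BnaA07g02340D had 14.2 CPM in replicate 1 and 3.43 CPM in replicate 2, against 1.22, 0.999 and 1.16 CPM in day 4 TSA cultures. BnaA07g03580D had 27.0 CPM in replicate 1 and 6.14 CPM in replicate 2, against 1.81, 1.76 and 1.96 CPM. For both genes each day 8 library was above all day 4 TSA libraries. BnaA07g03670D and BnaA07g02350D went against their neighbours and were higher in replicate 2. BnaA07g03670D had 18.4 and 28.2 CPM in replicates 1 and 2, against 2.28, 2.82 and 2.50 CPM in day 4 TSA cultures, and BnaA07g02350D had 3.61 and 5.83 CPM, against 0.167, 0.235 and 0.109 CPM. For BnaA07g02490D the day 8 libraries gave 48.1 and 25.0 CPM, where day 0 gave 0.996, 0.753 and 1.05 CPM, a log2 fold change of 5.33 ± 0.34 (SE; edgeR adjusted p = 1.48e-09). BnaA07g02540D, the strongest fall from day 0 by p in this stretch, had 3.29 and 1.60 CPM in the day 8 libraries, against 100.1, 105.1 and 127 CPM at day 0.

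In the last stretch BnaA07g04390D reached 118 and 218 CPM in the day 8 libraries, against 3.93, 4.20 and 4.98 CPM at day 0, a log2 fold change of 5.30 ± 0.30 (SE; edgeR adjusted p = 3.72e-10). BnaA07g04330D averaged 27.7 ± 6.4 CPM at day 8 (SD, n = 2) and 10.8 ± 1.4 CPM in day 4 TSA cultures (SD, n = 3). BnaA07g04370D averaged 28.9 ± 3.2 CPM at day 8 (SD, n = 2) and 17.2 ± 1.9 CPM in day 4 TSA cultures (SD, n = 3). Fold changes under RLE factors and library totals were recomputed only for the members named as the most significant calls of a comparison or as calls against the median, and all of these kept their direction. The day 8 difference of BnaA07g04370D was not among them.

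The numbered chromosomes outside the A07 start were scanned in the same way, in 1894 windows of 30 consecutive tested genes. Windows were formed over 57387 of the 64330 tested genes, those whose IDs give a chromosome and a plain number. The other tested genes were not scanned. Replicate 1 was at least 0.4 log2 lower on both heat-only days in 7 of the 9 windows of the A07 start and in 43 windows elsewhere. Those 43 lay on C02 (23 windows), C04 (15), C07 (4) and at the far end of A07 (1, BnaA07g35970D to BnaA07g36410D). The size at the A07 start was moderate among them. Its windows had medians of −0.72 to −0.36 on day 2, where 1 C04 window, BnaC04g01560D to BnaC04g02020D, reached −1.71. The windows that followed the A07 start most closely over the 17 libraries were the far end of A07 (Pearson's r = 0.94), C02 from BnaC02g37680D to BnaC02g38260D (r = 0.92) and C04 from BnaC04g02600D to BnaC04g03220D (r = 0.92). These r values describe windows that share all their libraries and were picked as the highest of 1894.

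The difference between the 2 day 8 libraries was not shared with those windows, but a low level in both libraries was. Relative to all genes, day 8 replicates 1 and 2 lay at −1.53 and −1.76 in the C04 window named above. They lay at −0.58 and −0.89 in the far A07 window and at −0.37 and −0.76 in the C02 window. The windows were picked for their likeness over all libraries, day 8 included. Replicate 2 was at least 1 log2 below replicate 1 in 3 of the 9 windows of the A07 start and in none of the 1894 windows elsewhere, and at least 0.75 log2 below in 4 of the 9 and in 1 elsewhere. Between the day 8 libraries the C02 window named above had a median of 0.014, the C04 window one of 0 and the far A07 window one of −0.068. The largest differences in the other direction lay on C06, where BnaC06g39880D to BnaC06g40200D had a median of 1.67 and BnaC06g40210D to BnaC06g40550D one of 1.47. In the first of these C06 windows it was replicate 1 that was low, at −1.44 relative to all genes, against 0.34 in replicate 2.

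**Figure D5:**
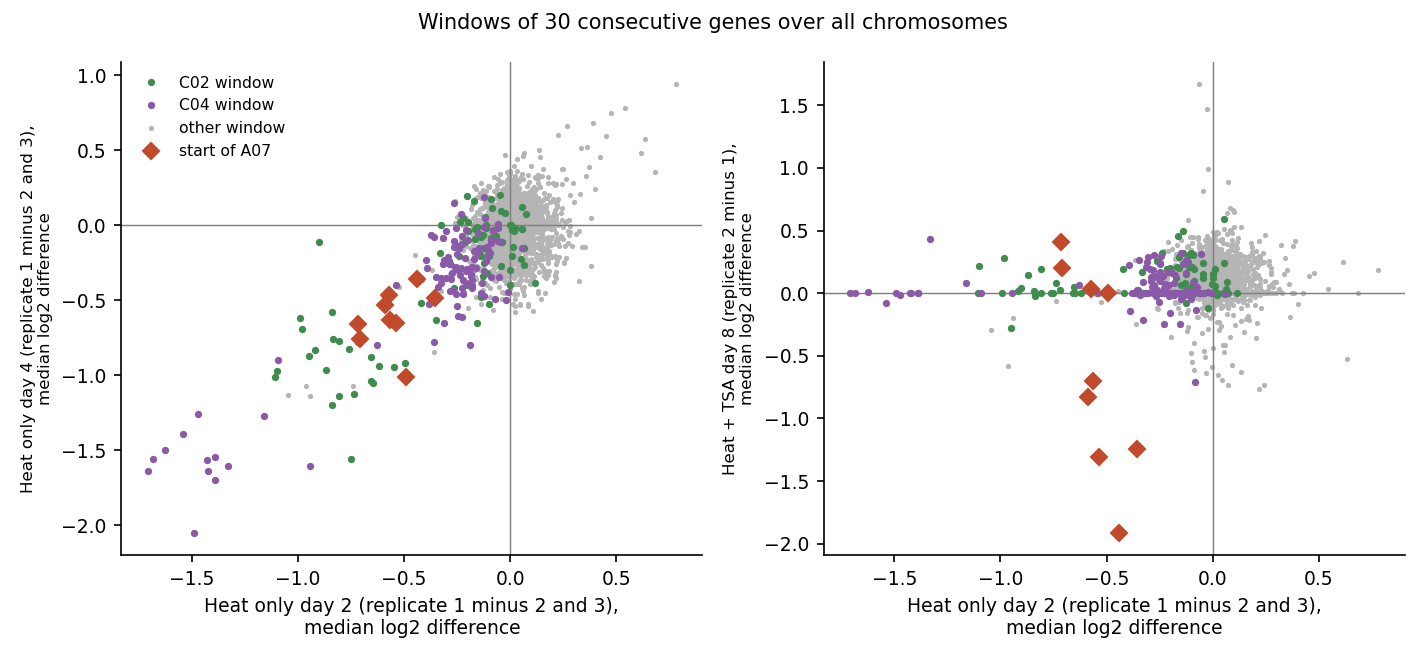
Median log2 difference between replicates in windows of 30 consecutive tested genes, with heat-only day 2 on the x axis and heat-only day 4 (left) or heat plus TSA day 8 (right) on the y axis. The 9 windows at the start of A07 lie with C02 and C04 windows at the lower left on the left side, and 3 of them stand alone below −1 in the right panel.

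The RefSeq table of the Da-Ae assembly, another build, lists 9 members by ID. It places 8 of them on chromosome A7, within the first 445 of its 4475 genes, and BnaA07g04280D, the last member of the middle stretch, on C7. Among the 8, BnaA07g00270D, BnaA07g00330D, BnaA07g00400D and BnaA07g00530D have ranks 68, 62, 55 and 39, so they run against the order of their IDs there. The order in this line, DH12075, was not examined, and only RNA was measured, so the number of DNA copies of these genes was not tested.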

How the data were processed

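RNA-seq counts of 17 libraries in 6 groups were analysed. The authors deposited raw read counts per gene, per the file headers. They also deposited log2 values and adjusted p-values, which were not used. The submitters' processing notes name limma. The aligner, counting program, genome build and annotation: not given in the sources used here. Columns were matched to samples by title.

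Total counts ran from 2716279 to 31407037. Levels are CPM with TMM-scaled library sizes; a count of 3 stood for 0.0808 to 0.786 CPM. Log2 CPM used a prior count of 2. Floors cover counting error only, and values after ± are the SD or SE named beside them. Tests used edgeR 4.0.16 (R 4.3.3): filterByExpr, TMM, robust quasi-likelihood fit with 1 coefficient per group over all libraries, two-sided, Benjamini-Hochberg over 64330 genes. The SE is the absolute log2 fold change divided by the square root of F, so it restates the test. The p-values set a difference between groups against the spread between replicates, estimated over all groups. The fit was tested on simulated data with 200 changed genes. DESeq2 1.42.0, other scalings, no filter, a minimum of 100 counts, a replicate block and leaving out each library were alternatives.

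Members, stretches, lists and comparisons were chosen with earlier results of these data known. Members were named by rule: the 12 highest, the 2 most significant calls in each direction per comparison at 5 CPM or more, 6 calls against the median, the 10 with the widest range of group means, and those at the edges. Windows held 30 tested genes. Replicate numbers were not used to pair the samples, since not every same-numbered pair had a correlation of deviations over 0.1.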

Additional observations from a re-analysis of the deposited data

Results flagged for a closer look

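The effect of TSA at day 4 minus its effect at day 2 was tested directly and passed the threshold for 50 members of the A07 start, or 17.9%, against 24.8% of all genes. The number was 28 without heat-only day 4 replicate 2. The 4 named for it were BnaA07g04420D at 1.54, BnaA07g04370D at 1.38, BnaA07g03670D at −4.79 and BnaA07g00870D at −2.84 on the log2 scale. BnaA07g00870D had 6.36, 6.05 and 9.94 CPM with TSA at day 4, against 346, 1149 and 800.0 CPM with heat alone. At day 2 it had 8.05, 7.76 and 10.2 CPM with TSA, against 143, 112 and 116 CPM with heat alone. BnaA07g04370D and BnaA07g04420D lie in the last stretch, where the heat-only replicates differed least.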

How the results depend on the processing

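Of 858 fold changes under alternatives, recomputed for the members named as most significant calls or as calls against the median, 857 kept their direction and side of the threshold; the exception was BnaA07g00230D under DESeq2. The count of members called stayed within 1.5 times in 199 of 207 cases. Leaving out 1 library gave 28 to 71 members for the difference in TSA effect between days, 63 to 127 for heat-only day 4 against day 2 (67 without day 2 replicate 2), and 4 to 14 for TSA day 4 against day 2. The 20 median differences between replicates relative to the rest of A07, under alternatives chosen after seeing the data, all moved by less than the spread between replicates. That spread holds the replicate differences themselves, so it is a wide measure and a smaller move says little.

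The members' CPM sum moved most. With TMM-scaled sizes it was 2182 for TSA day 4, 2030 for TSA day 2, 5188 for heat-only day 4, 3076 for heat-only day 2 and 2281 for day 0. On plain library totals the mean sum was 2470 for TSA day 4, 2662 for TSA day 2 and 3111 for day 0. For the heat-only cultures it was 2566 on day 4 and 2569 on day 2. Without the 10 highest members, also on plain library totals, it was 1658 for TSA day 4, 1953 for TSA day 2 and 2278 for day 0. It was then 1168 for heat-only day 4 and 1818 for heat-only day 2. The median deviation for TSA day 4 was −0.017 with RLE factors, 0.14 with library totals and −0.023 with a minimum of 100 counts. With library totals it was 0.38 for TSA day 2, −0.75 for heat-only day 4 and 0.30 for day 0. The cause was not tested.

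The replicate numbers were not taken to pair the samples, which leaves a shared culture or donor untested. The correlation of deviations between same-numbered libraries was 0.30, 0.080 and 0.23 for heat-only days 2 and 4. It was 0.28, 0.079 and 0.50 for TSA days 2 and 4. Heat-only day 2 replicate 2 correlated better with day 4 replicate 3 than with its own number. Heat-only day 2 replicate 1 correlated best with its own number, at 0.30, against −0.15 and −0.28 with day 4 replicates 2 and 3. With a replicate block the members called were 167, 153, 54, 138, 134, 105, 13, 152 and 148 over the 9 comparisons, against 170, 153, 50, 139, 136, 104, 10, 155 and 152 without it, and no count moved by over 1.5 times. Depth limits low members: 104 had no count in the shallowest library, day 0 replicate 3.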
